A study of Mus musculus with 4 samples.

Results

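The mitochondrial ribosomal protein genes are the nuclear genes for the protein subunits of the mitochondrial ribosome, the organelle's own translation machine. Members were the protein-coding genes of the deposited count table whose symbol is Mrpl or Mrps, then a number and at most 1 letter. This gave 78 of 55487 genes, 49 with Mrpl and 29 with Mrps symbols, on 17 chromosomes. The tumours came from AXT cells, a mouse osteosarcoma line whose bone marrow stromal cells of origin were made to overexpress c-MYC. Mock cells (genotype WT) gave 1 library, and cells with a HIF-1alpha knockout gave 3, in the table columns c11, c15 and c22. The labels name the knockout lines AXT1-1, AXT1-2 and AXT2 but do not tie a column to a line, so the 3 columns were used as libraries of 1 group. In both groups 2000000 cells in matrigel were placed in C57BL/6scid mice, hosts that lack mature T and B cells, and tumours were collected on day 1. The labels do not say whether each tumour came from its own animal, so a p-value here measures only the spread between these libraries.

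The mitochondrial ribosome is built from ribosomal RNAs encoded in mitochondrial DNA and from proteins that are all made in the cytosol and imported. It translates only the mRNAs of the mitochondrial genome, which encode core subunits of the respiratory chain and ATP synthase. Some of its proteins are homologues of bacterial ribosomal proteins, and many others are found only in mitochondrial ribosomes. HIF-1alpha is the oxygen-regulated subunit of a transcription factor known for lowering mitochondrial respiration in hypoxia, while c-MYC is known for raising genes of ribosomes and mitochondria. The comparison asked whether loss of HIF-1alpha went with a change in the mRNA of this machine.

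No member passed the test between knockout and mock. The members stayed close to their mock level: none of the 77 tested was fitted at a 2-fold difference or more, and their median log2 fold change (knockout over mock) was -0.08. For 48 of the 77, the knockout libraries lay on both sides of mock. The widest spread was that of Mrpl20, at 2.79 times its mock level in c15 and below mock in c11 and c22, and the 20 expressed genes nearest to it were all above mock in c15 too.

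Promoters are shown for 4 members that the results below turn on or that hold a motif frequent among members: Mrpl12 is the member with the highest level, Mrpl34 had the lowest fitted fold change, Mrps11 starts head to head with Mrpl46, and Mrpl20 had the widest spread. Each window runs from 250 bases before to 50 bases after the gene's RefSeq start, 5′ to 3′ on the gene's strand, and comes from RefSeq on GRCm38.p6. The windows are chr11:120484387-120484686 (plus strand), chr8:71464676-71464975 (plus), chr7:78782881-78783180 (plus) and chr4:155802628-155802927 (plus), in that order. Capitals mark a match on either strand to 1 of 5 motifs: the ETS core CCGGAAG, the NRF1 site (a palindrome-like GC-rich motif, given by name only), the YY1 site AAGATGGCG, the E-box CACGTG or the HIF core ACGTGC.

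Mrpl12: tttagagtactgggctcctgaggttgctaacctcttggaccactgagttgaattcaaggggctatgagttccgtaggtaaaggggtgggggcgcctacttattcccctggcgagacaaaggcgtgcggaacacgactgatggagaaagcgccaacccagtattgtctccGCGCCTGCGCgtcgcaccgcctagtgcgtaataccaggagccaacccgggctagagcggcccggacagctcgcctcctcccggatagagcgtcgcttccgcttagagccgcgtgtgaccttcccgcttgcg

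Mrpl34: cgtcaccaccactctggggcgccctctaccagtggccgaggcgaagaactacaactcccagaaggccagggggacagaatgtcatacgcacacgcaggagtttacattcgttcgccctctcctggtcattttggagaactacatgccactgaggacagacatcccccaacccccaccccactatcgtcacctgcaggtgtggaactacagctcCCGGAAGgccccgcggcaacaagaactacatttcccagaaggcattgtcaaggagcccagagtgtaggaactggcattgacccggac

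Mrps11: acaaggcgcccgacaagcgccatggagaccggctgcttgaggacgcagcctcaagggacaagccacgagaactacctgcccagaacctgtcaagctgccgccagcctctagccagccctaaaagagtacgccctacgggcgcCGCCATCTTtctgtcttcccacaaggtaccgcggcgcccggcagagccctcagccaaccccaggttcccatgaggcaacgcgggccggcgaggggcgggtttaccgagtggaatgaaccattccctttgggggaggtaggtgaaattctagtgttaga

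Mrpl20: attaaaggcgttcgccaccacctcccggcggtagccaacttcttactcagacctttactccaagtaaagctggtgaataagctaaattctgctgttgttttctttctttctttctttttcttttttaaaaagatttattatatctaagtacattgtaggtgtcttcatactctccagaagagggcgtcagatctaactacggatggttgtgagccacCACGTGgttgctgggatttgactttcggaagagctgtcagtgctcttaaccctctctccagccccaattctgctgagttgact

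Capitals mark an NRF1 match in Mrpl12, an ETS match in Mrpl34, a YY1 match on the opposite strand in Mrps11 and an E-box in Mrpl20. NRF1, and GABP of the ETS family, are known activators of nuclear genes for mitochondrial proteins. Of the 78 members, 69 had a window in the RefSeq table, and the others were Mrps34, Mrpl54, Mrps35, Mrpl38, Mrpl19, Mrpl4, Mrpl13, Mrps28 and Mrpl15. The ETS core was in 24 of the 69 windows (34.8%), against 12.2% of 16800 windows of protein-coding genes. Those 16800 were not limited to expressed genes, while nearly all members were expressed, and shares among expressed genes alone were not computed. The NRF1 site was in 13 (18.8%, against 6.89%) and the YY1 site in 8 (11.6%, against 2.01%). An ETS or NRF1 match was in 33 windows (47.8%, against 17.8%). The E-box, the sequence that c-MYC and MAX bind, was in 5 member windows (7.25%, against 8.08%), and the HIF core also in 5 (7.25%, against 6.51%). The HIF core was in the windows of Mrpl17, Mrpl28, Mrpl49, Mrpl50 and Mrps26. The HIF core here means the 6 letters ACGTGC only, and shorter or varied forms were not counted. Its part ACGTG lies within every E-box, but no member window held both an E-box and all 6 letters. The median fitted log2 fold change was -0.05 for the 23 tested members with an ETS core and -0.13 for the 13 with an NRF1 site. It was -0.08 for the 8 with a YY1 site, 0.20 for the 5 with an E-box (Mrpl2, Mrpl20, Mrpl36, Mrpl37 and Mrps18c) and -0.20 for the 5 with a HIF core. These shares and medians are descriptions, and a match in letters is not a measured binding site.

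Total counts were between 12383719 and 13193264 per library. Below, the intervals of summed counts and the limits for a count of 0 cover counting error only. Intervals of fitted fold changes come from the edgeR fit and rest on the spread between libraries. CPM is a gene's count relative to its library's total, scaled by TMM unless said otherwise, and knockout values given without a name stand in the order c11, c15, c22. Hif1a was at 107 CPM in mock, 103 (c11), 98.9 (c15) and 22.7 (c22), so its mRNA level separated only c22 from mock. The sources used here do not give the place of the edit. The osteoblast lineage markers summed to 1816 CPM in mock and from 1975 to 5340 in the knockout libraries. Col1a1 was the largest part in each library (861 CPM in mock against 1888, 1095 and 4774). Of the 8 genes in that list, 5 were below mock in every knockout library and 1 above, with a median log2 fold change of -0.81, and 0 passed. Runx2, a transcription factor that defines the lineage, was at 244 CPM against 131, 139 and 118, and Dmp1, a matrix protein, at 75.4 CPM against 0.612, 16.5 and 9.47. Some lists of host tissue markers differed between the groups: the skeletal muscle list summed to 109 CPM in mock and to 5.43, 1.44 and 22.1 in c11, c15 and c22, with all 8 of 8 genes below mock in each. In that list, 3 genes were at 0 in c11 and 4 in c15. The macrophage list summed to 734 CPM in mock and to 224, 307 and 417, with 7 of 8 genes below mock in every knockout library. The erythroid list summed to 116 CPM in mock and to 1.61, 4.25 and 41.7. The endothelial list, at low levels, summed to 4.19 CPM in mock and to 1.15, 2.36 and 1.40. The neutrophil and host fibroblast lists were less uniform. The neutrophil list summed to 9.92 CPM in mock and to 4.28, 13.5 and 15.8, above mock in c15 and c22. The host fibroblast list summed to 110 CPM in mock and to 25.3, 94.1 and 99.4, far below mock in c11 only. The part of these cells in the member levels was not tested, and in whole tumours fewer cells of a type and less RNA per cell cannot be told apart.

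All members but Mrpl53 were detected, at mean levels from 16.2 CPM (Mrps6) to 327 CPM (Mrpl12), with a median of 57.5 CPM. Mrpl53 had a count of 0 in all 4 libraries, a result that a level of 0.242 CPM in mock, or of 0.228 to 0.233 CPM in a knockout library, could still give. In GENCODE M21, 88.0% of the exonic bases of Mrpl53 also lie in exons of Gm42688 on the same strand. If reads in such overlaps were left out, the count of 0 does not bound the level of Mrpl53. Nme3, which overlaps Mrps34 on the same strand, was also at 0 in all 4 libraries. Of all 78 members, 33 share exonic bases with another gene and 18 share at least 10% of them, so their counts depend on settings that are not known. The shares were 77.8% for Mrps34 and 69.8% for Mrps25.

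Levels can be compared between genes only per kilobase of exon, and on that scale Mrpl12 stood first. Mrpl12 is the homologue of the bacterial stalk protein that engages elongation factors, and it also binds the mitochondrial RNA polymerase. Its level was 296 CPM per kilobase in mock, 218 (c11), 289 (c15) and 190 (c22). The next 5 by mean level were Mrpl42, Mrpl52, Mrpl30, Mrpl28 and Mrpl33, all of the large subunit. Mrpl42 was at 159, 95.3, 149 and 112 CPM per kilobase in mock, c11, c15 and c22. Among these, Mrpl33 and Mrpl52 were nearly flat: Mrpl33 ranged from 118 to 121 CPM per kilobase over the 4 libraries, and Mrpl52 from 120 to 128. The 4 lowest expressed members per kilobase were Mrpl32, Mrpl19, Mrpl17 and Mrps25. Mrpl32, a large subunit protein that is matured by a mitochondrial protease, was at 10.04, 12.6, 12.2 and 9.41 CPM per kilobase. These lengths are those of the annotation, and which transcripts the cells used was not measured.

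**Figure D1:**
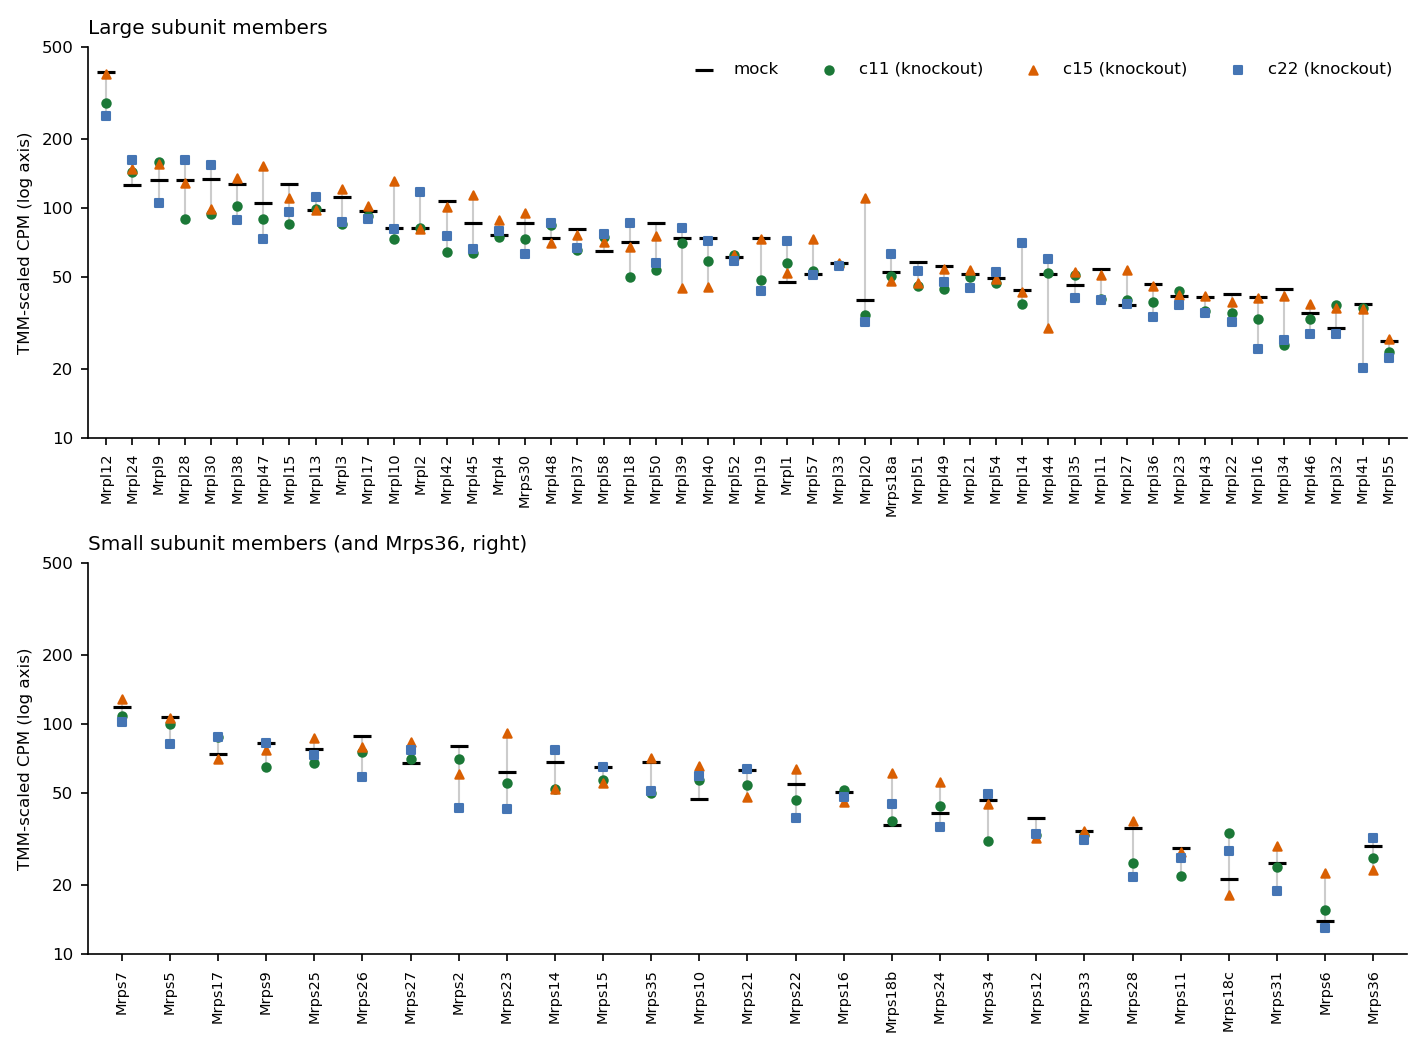
TMM-scaled CPM of the 77 tested members (log axis) in mock (black bars) and in the knockout libraries c11, c15 and c22 (symbols), large subunit above and small subunit below, ordered by mean level. Points of a member lie close together, with Mrpl20 in c15 (111 CPM against 39.7 in mock) standing apart.

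The summed count of all members made up a similar share of each library. As CPM of the unscaled library total, the sum was 5379 in mock (95% exact binomial interval 5339 to 5420). It was 4790 in c11 (4752 to 4827), 5551 in c15 (5511 to 5591) and 4814 in c22 (4776 to 4851). Mock thus lay between c15 and the other knockout libraries. With 1 mock library, a 1-sided exact permutation test of this sum cannot go below p = 0.25. The 51 genes of the large subunit had 2.57 times the count of the 26 of the small subunit in mock, 2.44 times in c11 and 2.58 times in both c15 and c22. The remaining member, Mrps36, was assigned to neither, since it is known as a subunit of the oxoglutarate dehydrogenase complex of the citric acid cycle.

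By edgeR's quasi-likelihood test, 0 of 77 members were called higher and 0 lower in the knockout group, where 0% of all 15706 genes tested were called higher and 0.00637% lower. At an unadjusted p under 0.05 the members' counts were also 0 and 0, where 1.12% of all genes were higher and 2.56% lower. DESeq2 and limma-voom likewise gave 0 and 0, adjusted or not, although DESeq2 called 0.306% of all genes higher and 0.42% lower. At an unadjusted p under 0.05, DESeq2 had 2.12% of all genes higher and 1.65% lower, and limma-voom 0.872% and 2.71%. The smallest member p by edgeR was 0.221 (Mrpl50), with an adjusted p of 1.00. Fitted log2 fold changes ran from -0.52 (Mrpl34) to 0.57 (Mrpl20), with quartiles of -0.22 and 0.08, against a median of 0.05 over all genes tested. Of the 77, 51 were fitted below 0 and 26 above.

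The precision of these values is limited. The SE of a member's log2 fold change was between 0.29 and 0.80 with a median of 0.35, and the 95% interval lay wholly within a 2-fold difference for 28 of 77 members. For the other 49, a 2-fold change lies inside the interval. Among the 8703 genes tested with a mean at or above that of the lowest member, 4.69% were fitted at a 2-fold difference or more, against 0 of the members.

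**Figure D2:**
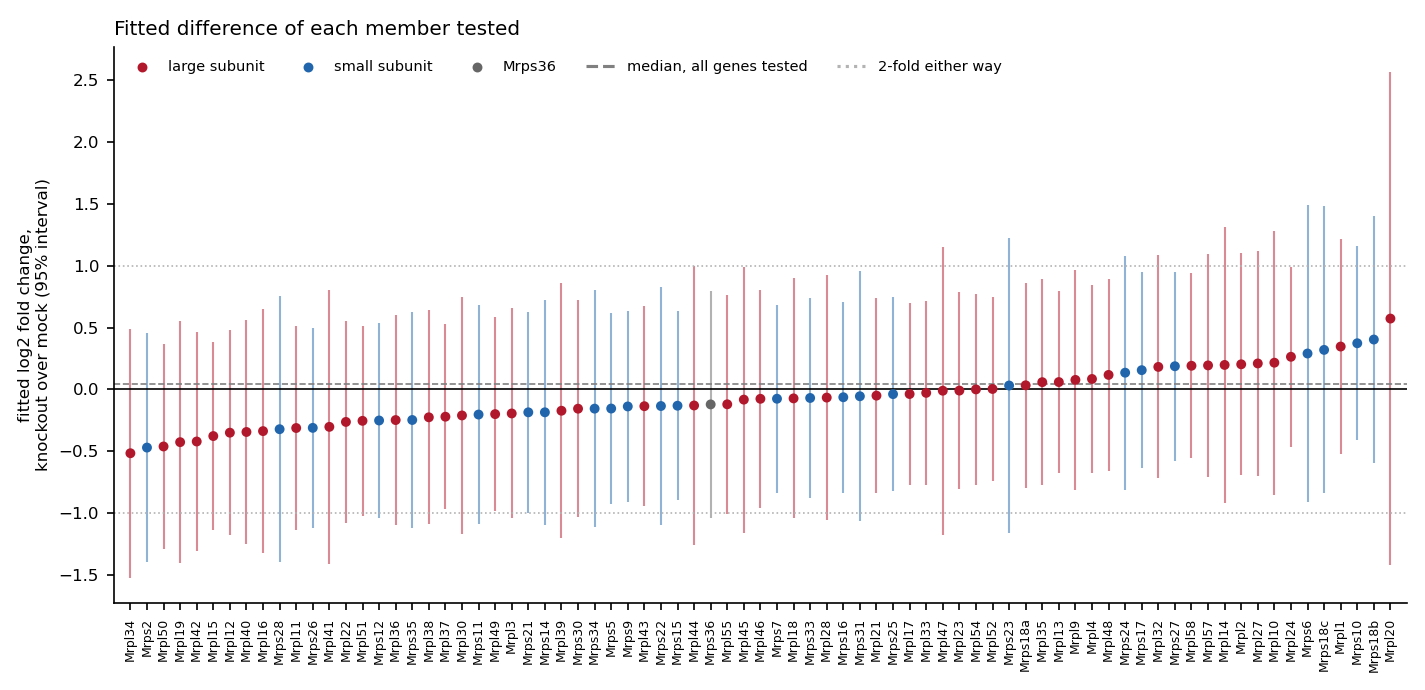
Fitted log2 fold change (knockout over mock, points) with its 95% interval (lines) for the 77 members tested, in rising order and coloured by subunit. The dashed line marks the median of all genes tested (0.05) and the dotted lines 2-fold either way, and Mrpl20 at the right has the widest interval (-1.42 to 2.56).

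Both subunits gave similar medians. The 50 tested genes of the large subunit had a median log2 fold change of -0.07 and the 26 of the small subunit one of -0.10. The 46 members with a bacterial homologue had a median of -0.06, and the 30 tested members found only in mitochondrial ribosomes one of -0.13. Mrps36, outside both subunits, was at 29.4 CPM in mock against 26.1 (c11), 23.1 (c15) and 31.99 (c22), a range that includes mock.

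Among the large subunit genes, most of the lowest fold changes came from members that were low in c11 and c22 and nearest to mock in c15. Mrpl34, a small protein of the large subunit with a bacterial homologue, was at 44.5 CPM in mock against 25.5 (c11), 41.3 (c15) and 26.6 (c22). All 3 knockout values lay below mock (log2 fold change -0.52, SE 0.41, adjusted p = 1.00 by edgeR). Mrpl50, found only in mitochondrial ribosomes, was at 85.7 CPM in mock against 53.9 (c11), 75.3 (c15) and 57.7 (c22). Mrpl42, another mitochondria-specific subunit, was at 108 CPM against 64.7, 101 and 75.9. All 3 knockout libraries lay below mock for both genes, as they did for 22.2% of all genes tested, and c15 again came nearest to mock. Mrpl19, which shares 36.0% of its exonic bases with Gcfc2 on the opposite strand, was at 74.3 CPM against 48.8, 73.5 and 43.6. Mrpl15 was at 127 CPM against 85.3, 111 and 96.5. Mrpl12 was at 389 CPM against 286, 380 and 250, the same order of libraries as in Mrpl19. Mrpl40 differed, with its lowest value in c15: 74.4 CPM in mock against 58.7, 45.3 and 71.8.

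The highest fold changes of the large subunit were smaller apart from Mrpl20. Mrpl1, the homologue of the bacterial stalk protein beside the tRNA exit site, was at 47.7 CPM in mock against 57.6 (c11), 52.3 (c15) and 72.1 (c22). Mrpl24, a large subunit protein that in bacteria starts assembly, was at 126 CPM against 143, 148 and 162. Every knockout library lay above mock for both, and neither passed (log2 fold change 0.35, SE 0.35 for Mrpl1 and 0.26, SE 0.29 for Mrpl24 in the edgeR fit). Mrpl10, which anchors the stalk that holds Mrpl12, was at 82.0 CPM against 73.6, 132 and 80.8, so c15 alone was above mock. Mrpl58, a peptidyl-tRNA hydrolase built into the large subunit that frees stalled ribosomes, was at 65.2 CPM against 75.01, 71.0 and 77.3. Its knockout values had an SD of 3.23 CPM (n = 3), and all lay above mock. Mrps30, which despite its symbol is placed in the large subunit, was at 86.1 CPM against 73.1, 95.6 and 63.4, on both sides of mock.

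Among the small subunit genes, Mrps2 had the lowest fold change. It was at 80.5 CPM in mock against 70.7 (c11), 60.5 (c15) and 43.2 (c22) (log2 fold change -0.47, SE 0.37, adjusted p = 1.00 by edgeR). Mrps10 was at 47.0 CPM against 57.3, 65.9 and 59.6, with all knockout libraries above mock and an SD of 4.44 CPM among them (n = 3). Mrps6 had the lowest mean CPM of the expressed members, without correction for length, at 13.9 CPM against 15.5, 22.4 and 12.97. Of its exonic bases, 19.9% lie in exons of other genes of the same strand.

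The paralogues Mrps18a, Mrps18b and Mrps18c derive from 1 bacterial small subunit protein, and structures place the first in the large subunit and the others in the small one. They did not follow a common order. Mrps18a was at 52.7 CPM in mock against 50.5 (c11), 48.2 (c15) and 63.1 (c22). Mrps18b was at 36.3 CPM against 37.9, 61.3 and 44.8, highest in c15. Mrps18c was at 21.3 CPM against 33.6, 18.2 and 28.0, lowest in c15. Of the exonic bases of Mrps18b, 30.5% lie in an antisense gene, and of those of Mrps18c, 23.2% in another gene of the same strand. The fitted log2 fold changes of Mrps18a, Mrps18b and Mrps18c were 0.03, 0.40 and 0.32, with SEs of 0.34, 0.40 and 0.47, and none passed.

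Counting libraries rather than fitted values, 7 of 77 members (9.09%) had all 3 knockout libraries above mock, where 21.4% of all genes tested did. These 7 were Mrpl1, Mrpl24, Mrpl27, Mrpl58, Mrps10, Mrps18b and Mrps27. All 3 were below mock for 22 members (28.6%), where 22.2% of all genes tested were. The other 48 members had knockout libraries on both sides. The 3 ratios share the mock library, so a high or low mock value moves all of them. These counts depend on c15 and c22: without c15, 11 members were above mock and 41 (53.2%) below, where 35.2% of all genes lay on each side. Without c22 the counts were 15 above and 35 (45.5%) below, where the shares of all genes were 30.3% and 30.6%. Without c11 they were 8 above and 23 (29.9%) below, where the shares were 27.2% and 28.6%.

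Taken library by library, c11 had 55 of 77 members below mock, c15 had 42 and c22 had 50. The median log2 ratio to mock was -0.17 in c11 (SD over members 0.27), -0.01 in c15 (SD 0.34) and -0.13 in c22 (SD 0.35). Over all genes tested the medians were 0.01, -0.01 and -0.01. The highest of the knockout values was in c15 for 46 members, and the lowest was in c22 for 35. Few members were far from mock in any library: c11 had 5 members (6.49%) that differed by over 1.5-fold, c15 had 7 (9.09%) and c22 had 10 (12.99%). The same shares among genes at the lowest member's mean or above were 22.9%, 17.2% and 28.0%. The SD of log2 CPM among the knockout libraries had a median of 0.23 over members and of 0.30 over those genes.

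Cytosolic ribosomal protein genes, the parts of the other ribosome of the cell, had another order of libraries. Their 78 tested genes of 80 had median log2 ratios to mock of -0.09 in c11, -0.20 in c15 and 0.22 in c22, so c22 was highest and c15 lowest. Their summed level was 95247 CPM in mock against 92827 (c11), 85024 (c15) and 112605 (c22). The mRNAs that the mitochondrial ribosome translates were also highest in c22 and lowest in c15, with medians of -0.14, -0.31 and 0.28 for 12 tested of 13. Their sum was 19521 CPM in mock and 19403, 17796 and 25222 in the knockout libraries. Levels within this list were very uneven: in mock, mt-Co1 was at 8056 CPM but mt-Co2 at 51.3, mt-Atp6 at 32.4 and mt-Co3 at 18.0. How reads that map to several places were treated is not given, so the sum and medians may miss reads of some of these mRNAs. None of the 78 and none of the 12 passed by edgeR, adjusted or at an unadjusted p under 0.05.

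Mrpl20 was the member with the widest spread. Mrpl20, whose bacterial homologue is needed early in assembly of the large subunit, lies at chr4:155802878-155809975 (GRCm38, plus strand). It was at 39.7 CPM in mock, 34.4 (c11), 111 (c15) and 31.8 (c22), with c15 far above the other 3. The fitted log2 fold change was 0.57 (SE 0.80, adjusted p = 1.00 by edgeR), so it did not pass. Its neighbours showed the same pattern. For the 20 nearest protein-coding genes with a mean of 5 CPM or more, 10 on each side, the median log2 ratio in c15 was 1.08, and all 20 were above mock. The medians of the same 20 genes were -0.16 in c11 and -0.04 in c22.

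One of these neighbours encodes another subunit of the mitochondrial ribosome outside the symbol pattern, Aurkaip1, 25.8 kilobases from Mrpl20. Aurkaip1 was at 45.2 CPM in mock, 39.3 (c11), 78.5 (c15) and 41.5 (c22). Atad3a, an ATPase of the mitochondrial inner membrane, was at 94.2 CPM in mock against 55.8, 184 and 49.7. Other neighbours were high in c15 too: Gnb1, a G protein subunit, was at 279 CPM against 263, 545 and 271. Ssu72, a phosphatase of RNA polymerase II, was at 34.9 CPM against 39.1, 96.3 and 38.2. Over all 90 expressed genes within 12 Mb, the median log2 ratio in c15 was 0.93 for the 42 genes from 12 to 4 Mb before Mrpl20, of which 40 were above mock. It was 1.10 for the 12 genes from 4 to 2 Mb before, 0.90 for the 6 from 2 to 1 Mb before, 1.01 for the 12 in the last 1 Mb before and 1.24 for the 18 in the 1 Mb after. The DNA of the lines was not measured in these files.

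**Figure D3:**
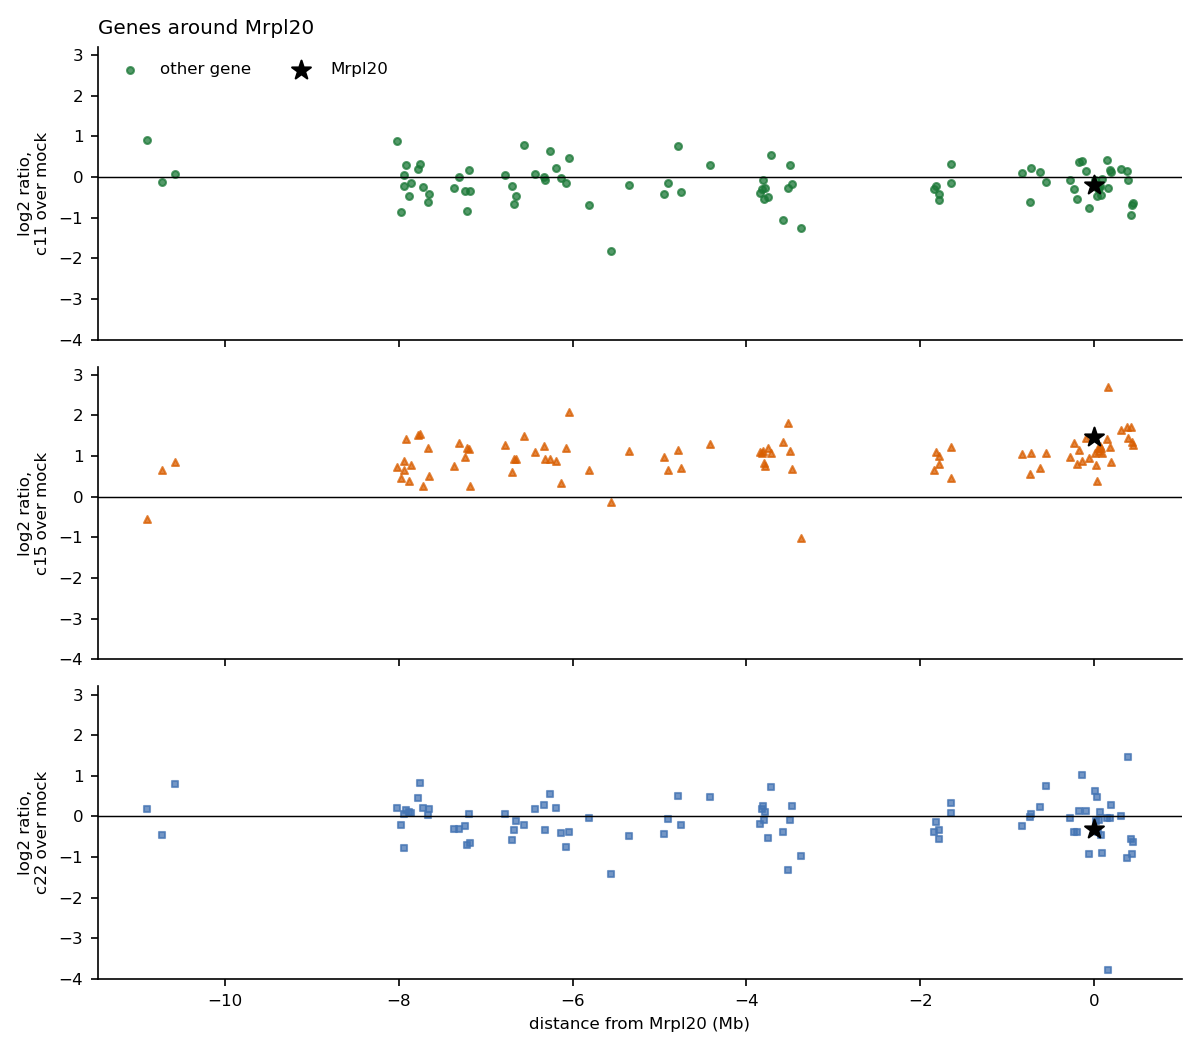
Log2 ratio to mock of the expressed protein-coding genes within 12 Mb of Mrpl20 (dots) and of Mrpl20 (star) against distance in Mb, for c11, c15 and c22. In c15 nearly all genes lie above 0, around a log2 ratio of 1, while in c11 and c22 they lie around 0.

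On chromosome 11, which holds 11 members, 1 stretch stood out in c15. There the 4 members between Mrps23 (chr11:88204388-88211507) and Mrpl45 (chr11:97315716-97329920) were all above mock. Mrps23, a mitochondria-specific protein of the small subunit, was at 61.7 CPM in mock against 55.3 (c11), 91.1 (c15) and 42.9 (c22). Mrpl45, which lies at the exit of the nascent chain tunnel beside the inner membrane, was at 86.2 CPM against 64.1, 114 and 66.2. Mrpl27, near the peptidyl transferase centre, was at 38.1 CPM against 40.0, 53.9 and 38.3. The c15 log2 ratios of Mrps23, Mrpl27, Mrpl10 and Mrpl45 were 0.56, 0.50, 0.68 and 0.40, and the medians of their 20 nearest genes were 0.67, 0.57, 0.53 and 0.53. Farther along the chromosome, the c15 log2 ratios of Mrpl58, Mrps7, Mrpl38 and Mrpl12 were 0.12, 0.11, 0.09 and -0.03, and their neighbourhoods were at 0.07, 0.01, 0.09 and 0.06. Nearer its start, Mrpl22 and Mrpl55 were at -0.11 and 0.03, with neighbourhoods at -0.08 for both. Mrps24 departed from its neighbourhood, at 0.44 where the neighbours had a median of 0.08.

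On chromosome 17, all 8 members were above mock in c22, with a median log2 ratio of 0.29. The 502 other expressed genes of that chromosome had a median of 0.54 in c22, and of -0.06 in c11 and 0.02 in c15. Mrpl14, which faces the small subunit, was at 44.1 CPM in mock against 38.5 (c11), 43.0 (c15) and 70.4 (c22). Mrpl2, a protein near the catalytic centre, was at 81.5 CPM against 82.1, 81.4 and 118. Mrps18a and Mrps10 lie on this chromosome too, with c22 log2 ratios of 0.26 and 0.34. In c11 and c15 the members of chromosome 17 lay on both sides of mock.

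Low values had local company as well. In c15, Mrpl40 and Mrpl39 on chromosome 16 had log2 ratios of -0.71 and -0.72, where the 341 other genes of the chromosome had a median of -0.37. Mrpl39 was at 74.2 CPM in mock against 70.7 (c11), 44.9 (c15) and 82.1 (c22). Mrps6, on the same chromosome at chr16:92058270-92112227 and nearer to Mrpl39 than to Mrpl40, was at 0.67, and its 20 nearest genes had a median of 0.07. All 5 members of chromosome 1 were below mock in c15 (median -0.39, other genes -0.26). Mrpl44, whose fold is that of a double-stranded RNA nuclease, lay furthest below mock among them in c15, at 30.0 CPM against 51.9 in mock, 52.4 in c11 and 59.9 in c22. All 4 members of chromosome 2 were below mock in c22 (median -0.74, other genes -0.25). They were also below mock in c15 (median -0.11, other genes -0.11) and in c11, where the other genes were not (median -0.14, other genes 0.18). These were Mrpl41, Mrps2, Mrps5 and Mrps26, and Mrpl41 had the lowest c22 log2 ratio, -0.91.

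**Figure D4:**
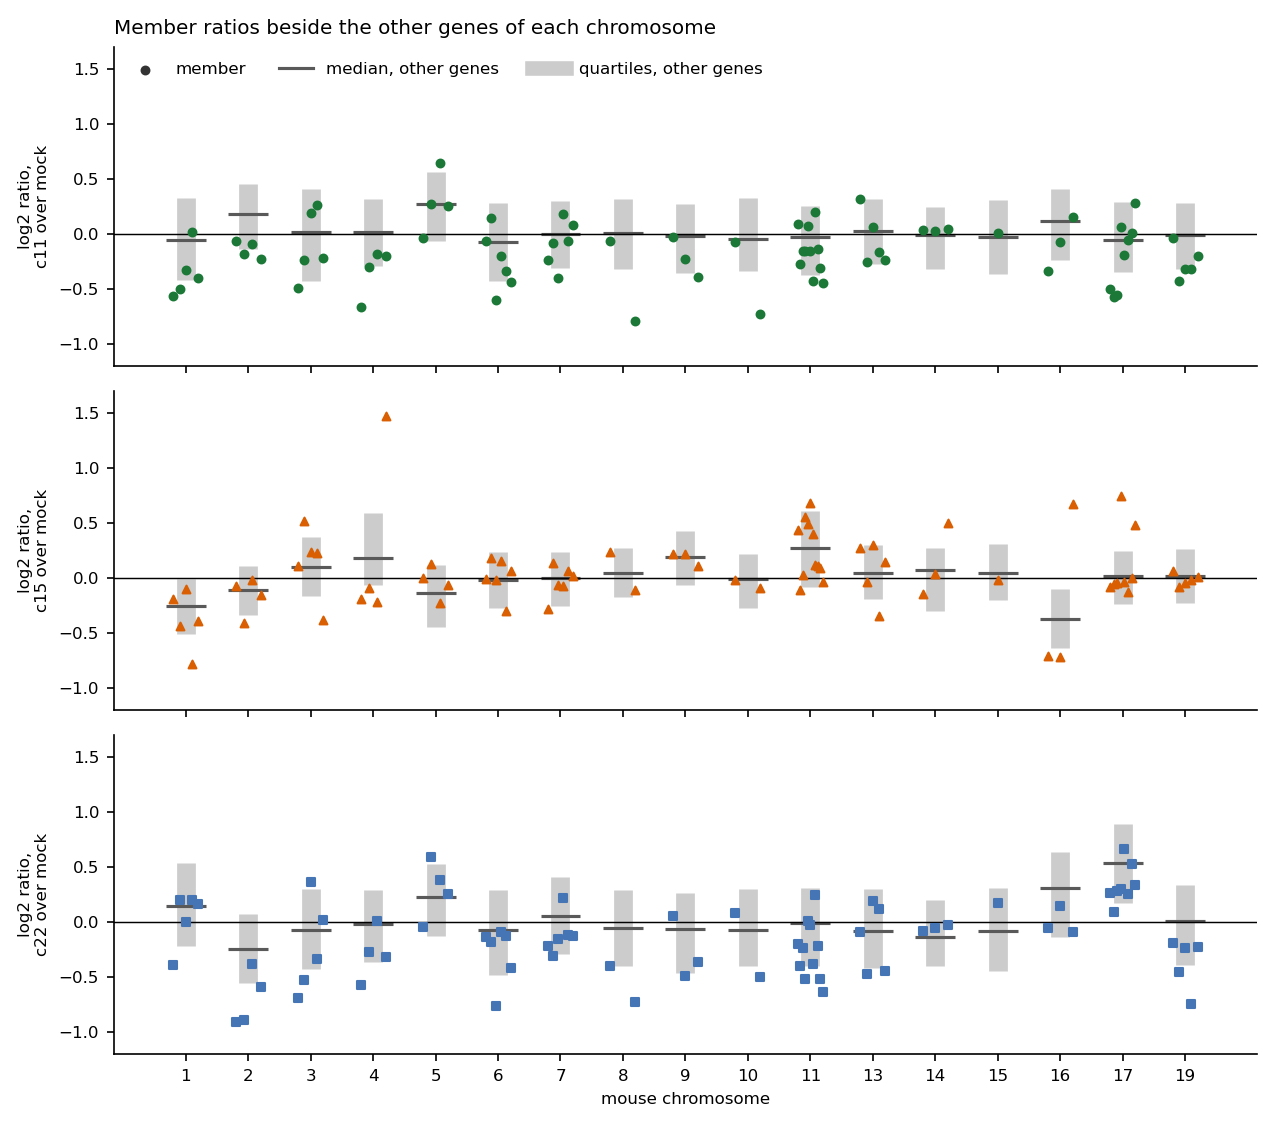
Log2 ratio of each tested member to mock by chromosome, in c11, c15 and c22 (points, in order along the chromosome), with the median (line) and quartiles (bar) of the other expressed protein-coding genes of that chromosome. Members of chromosome 17 lie above 0 in c22 with the other genes, and Mrpl20 is the highest point on chromosome 4 in c15.

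Over all 77 members, the log2 ratio of a member and the median of its nearest non-member genes had a Pearson r of 0.75 in c15 (Spearman rho 0.55), 0.54 in c22 (rho 0.49) and 0.13 in c11 (rho 0.19). The median was over 20 genes, 10 on each side, for 73 members, and over 10 to 14 for the 4 members with too few genes on 1 side. Both sides of each pair share the same 2 libraries, members that lie close together share neighbours, and Mrpl20 is far from the rest in c15, so these are descriptions. Without the 2 members whose neighbourhoods lay farthest from the median (Mrpl20 and Mrps23 in c15), r was 0.64 in c15, 0.50 in c22 and 0.14 in c11. For 10213 other protein-coding genes the r was 0.33 in c15, 0.23 in c22 and 0.18 in c11. Subtracting the neighbourhood median narrowed the SD over members from 0.34 to 0.23 in c15 and from 0.35 to 0.30 in c22. In c11 it widened from 0.27 to 0.31. The c11 values depended on the number of neighbours: r was 0.24 with 5 on each side and 0.31 with 20, and with 20 the SD narrowed to 0.26.

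**Figure D5:**
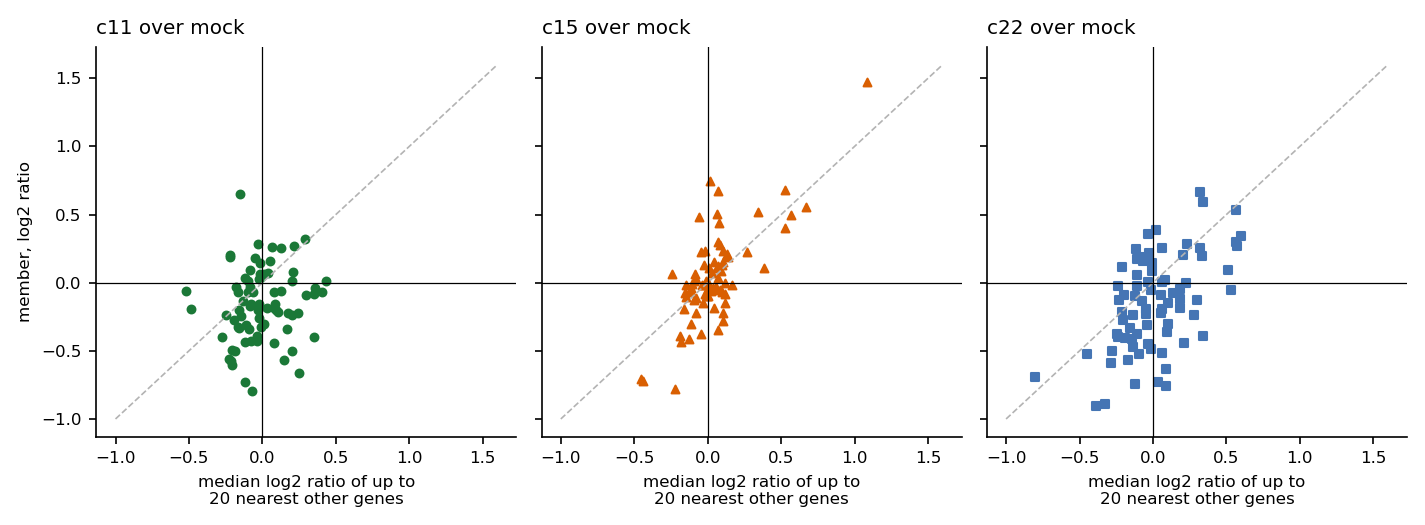
Log2 ratio to mock of each of the 77 members against the median log2 ratio of up to 20 nearest other expressed protein-coding genes, for c11, c15 and c22 (dashed line, equal values). Points follow the line in c15 (r = 0.75) and less so in c22 (r = 0.54), and least in c11 (r = 0.13, or 0.31 with 20 neighbours on each side).

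Not every wide spread had a matching neighbourhood. Mrps18b on chromosome 17 had a c15 log2 ratio of 0.75 where its 20 nearest genes had a median of 0.02. Mrps18c had a c11 log2 ratio of 0.65 where its neighbourhood had one of -0.15.

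Mrpl47, beside the tunnel exit of the large subunit, did lie among genes with similar ratios. It was at 105 CPM in mock against 89.3 (c11), 151 (c15) and 73.2 (c22), with log2 ratios of -0.24, 0.52 and -0.52 where the medians of its neighbourhood were -0.25, 0.34 and -0.45. Its head-to-head partner Ndufb5, a subunit of respiratory complex I whose start lies next to that of Mrpl47 on the opposite strand, was at 114 CPM against 99.5, 146 and 90.4, in the same order of libraries. The transcripts of the pair overlap, and 24.2% of the exonic bases of Mrpl47 lie in exons of genes of the opposite strand.

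Head-to-head partners were common among members. A protein-coding gene on the opposite strand started within 1000 bases for 32 of 78 members (41.0%), against 10.5% of all protein-coding genes and 15.96% of those tested. Mrpl46 and Mrps11 are such partners of each other. Their starts lie 412 bases apart on opposite strands, inside each other's transcripts, and the window of Mrps11 printed above holds only its own start. Mrpl46 was at 35.0 CPM in mock against 33.0 (c11), 38.4 (c15) and 28.3 (c22). Mrps11 was at 29.0 CPM against 21.9, 27.7 and 26.1, with a different order of the knockout libraries. Other partners belong to mitochondria too, such as Twnk, the mitochondrial DNA helicase, beside Mrpl43, Ndufs6 of complex I beside Mrpl36 and Sars2, the mitochondrial seryl-tRNA synthetase, beside Mrps12. Over the 31 distinct pairs, with Mrpl46 and Mrps11 entered once, the log2 ratios of member and partner had a Pearson r of 0.36 (c11), 0.42 (c15) and 0.61 (c22), a description over pairs that share both libraries and the region.

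Of the other genes of the pathway, 5 encode subunits whose symbols fall outside the pattern. Dap3, a GTP-binding protein of the small subunit, was at 199 CPM in mock against 214 (c11), 205 (c15) and 176 (c22). Ptcd3, a pentatricopeptide protein of the small subunit, was at 134 CPM against 90.2, 149 and 72.1. Chchd1 was at 77.2 CPM against 95.7, 93.4 and 75.6, and Gadd45gip1, of the large subunit, at 108 CPM against 82.0, 110 and 97.1. None of the 5, Aurkaip1 included, had knockout libraries all on 1 side of mock, and none passed.

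Of 26 assembly and rRNA modification factors, 0 passed by edgeR in either direction. At an unadjusted edgeR p under 0.05, 1.12% of all genes tested were higher and 2.56% lower, and 1 of the 26 was lower. This was Gtpbp10, a GTPase needed for late assembly of the large subunit, at 167 CPM in mock against 55.4 (c11), 41.0 (c15) and 34.7 (c22) (log2 fold change -1.94, SE 0.34, edgeR adjusted p = 0.332). All 3 knockout libraries lay below mock, as they did for 22.2% of all genes tested. The 20 expressed genes nearest to Gtpbp10, over 5.23 Mb of chromosome 5, had median log2 ratios of -1.25 in c11, -0.74 in c15 and -0.75 in c22, with 16, 18 and 14 of the 20 below mock. Mterf3, which is involved in ribosome assembly and mitochondrial transcription, had the highest fold change of the list, at 16.1 CPM against 27.5, 24.8 and 24.5, and did not pass.

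Of 12 translation factors, 0 passed and 0 had an unadjusted p under 0.05, with a median log2 fold change of -0.02. Tufm, the elongation factor that brings aminoacyl-tRNA to the mitochondrial ribosome, was at 224 CPM in mock against 137 (c11), 224 (c15) and 155 (c22), with c15 nearest to mock. Of 7 genes of mitochondrial transcription, 0 passed, and Tfam, which packages and transcribes mitochondrial DNA, was at 92.0 CPM against 65.7, 86.5 and 71.0. Of 9 regulators of mitochondrial genes, 0 passed. Myc was at 3.47 CPM in mock, 14.8 (c11), 24.2 (c15) and 3.80 (c22) (log2 fold change 2.04, SE 1.12, adjusted p = 1.00 by edgeR). Whether these Myc values include reads of the introduced c-MYC is not given in the sources used here, so they may not be the cells' full c-MYC level. Ppargc1a, a coactivator of mitochondrial genes named after its values were seen, had a similarly wide range to Myc, at 15.8 CPM against 34.5, 8.05 and 4.66. Gabpa, the DNA-binding subunit of GABP, was at 150 CPM against 151, 101 and 187. Esrra, an orphan nuclear receptor of mitochondrial genes, was at 57.8 CPM against 48.0, 49.0 and 33.0, below mock in each knockout library without passing.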

How the data were processed

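Poly(A) RNA of 4 tumours was measured with a directional library kit, per the labels' protocols. The authors deposited unnormalized read counts per Ensembl gene, with a column for mock and for each of c11, c15 and c22. The submitters' processing notes name HISAT2 2.1.0 among the tools, featureCounts 1.6.3, Trimmomatic 0.38, SAMtools 1.9 and FastQC 0.11.7, with GRCm38 as build. How strand, and reads that map to several places, were treated is not given in the sources used here, so overlapping genes or near-identical copies may lose, share or split reads.

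The whole table was filtered with edgeR's filterByExpr (15706 genes kept), scaled by TMM and fitted with the quasi-likelihood test of edgeR 4.0.16 in R 4.3.3 (robust, 2-sided), with Benjamini-Hochberg adjustment over all genes tested and with 0.05 as the threshold. The mock library, having no replicate, was assumed to vary like the knockout libraries, which left 2 residual degrees of freedom beside a prior of 3.77. SEs were derived from the F statistic. DESeq2 1.42.0, limma-voom (limma 3.58.1), other scalings, other filters, leaving out each knockout library and other member sets were tried as alternatives. Ratios of single libraries to mock were taken from TMM-scaled CPM with 0.5 CPM added to both. Levels per kilobase used the union of exons of protein-coding transcripts in the basic set of GENCODE M21, in which all 78 members had the coordinates of the deposited table. The test was also run on simulated counts with planted changes, all larger than any change fitted for a member. That run therefore cannot tell how often changes of the members' size would be found.

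The members and gene lists were chosen with earlier results of these data known. Members were named where they passed the test, and otherwise where they had the 8 highest or 8 lowest fitted log2 fold changes, the 6 widest ranges among knockout libraries, or the 6 highest and 4 lowest levels per kilobase. Mrps18a, Mrps18b, Mrps18c, Mrpl12, Mrpl58, Mrps36 and Mrps30 were always named. From each list of related genes, up to 3 genes with the highest and 3 with the lowest log2 fold change at 5 CPM or more could be named. The chromosomal neighbourhoods, the head-to-head pairs, the promoter motifs and the members named there were chosen after values were seen.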

Additional observations from a re-analysis of the deposited data

How the results depend on the processing

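The counts of members called higher or lower stayed at 0, and the medians kept their direction within the spread, under each alternative. Of 164 alternative values, 155 stayed close to the reported one and 9 moved. Close meant a count within 1.5-fold of the reported count, and many of these were counts of 0 that stayed at 0. For a median or a sum, close meant a shift smaller than the SD of that value over the 3 knockout libraries. Of the 9, 4 came from leaving out c15 (11 members above mock in both other knockout libraries and 41 below) or c22 (15 above and 35 below). Over all 3 such omissions, c11 included, the counts ran from 8 to 15 above and from 23 to 41 below. Another 4 came from summing libraries. With c15 and c22 summed as 1 library, an alternative chosen after seeing the data, 16 were above and 43 below. With c11 and c15 summed, 11 were above and 35 below. Fewer libraries make these counts easier to reach. The last was the summed level. Without the 3 members of highest total count the mean summed level of the knockout libraries was 4456 CPM in place of 5052. No paired analysis was possible because there is 1 mock library. The mock library has no replicate and could not be left out, so an error in it would move every member's ratio.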
